A study of Mus musculus with 7 samples.

Results

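The genes of blood coagulation and complement were followed across induced hepatocyte-like cells (iHep), adult hepatocytes and embryonic fibroblasts (MEF) of the mouse. The 42 member genes were found on the array by gene name or by the current symbol of the probe's accession. They are read by 60 of the 41138 probes and are 42 of 27583 genes. They were divided by role into 14 genes of the clotting cascade, 12 genes of its inhibitors and of fibrinolysis, and 16 complement genes.

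RNA from 7 samples, each on 1 Agilent 1-colour array, was compared. The iHep group held 3 types of iHep cells with 1 array each, the hepatocyte group 1 array of cells from adult liver, and the MEF group 3 arrays of fibroblasts prepared singly from embryos of 13.5 days post coitum, all from C57BL/6 mice. iHep cells are made from fibroblasts by forcing the expression of hepatocyte transcription factors, here, from knowledge of the study, Hnf4a together with Foxa1, Foxa2 or Foxa3. Types 1, 2 and 3 are those labelled 4α1, 4α2 and 4α3. The age of the adult mice, the number of cultures behind each iHep type and the meaning of the last digit are not given in the sources used here.

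A level is the log2 signal of a gene's brightest probe after subtraction of the array's 75th percentile, so levels compare arrays and not genes. Throughout, iHep levels stand in the order of types 1, 2 and 3, and MEF levels in the order of MEF 1, 2 and 3. The 75th percentile of signal was 608 to 1484 per array, where 60.2% to 68.7% of probes exceeded background clearly. The difference between MEF 2 and MEF 3 stayed within that of repeated spots on a single array, so both were counted as 1 sample, which leaves iHep n = 3, hepatocyte n = 1 and MEF n = 2. Changes are log2 differences ± SE from limma, a gene is called at an adjusted p under 0.05 over the 19133 genes tested, and the p-values rest on the spread between these samples alone, for iHep cells that between types. The hepatocyte group, with 1 array, takes its spread from the others. That array sat alone on its slide, so slide and cell type cannot be told apart for it. MEF 1 shared a slide with the 3 iHep arrays, and MEF 2 and 3 sat on another.

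The labelled cell types were checked with marker lists. Of 13 hepatocyte markers on the array, 9 to 10 were above background in iHep cells, 13 in hepatocytes and 2 to 3 in MEF, and their summed signal in units of the 75th percentile was 57.0 to 406 in iHep cells, 2746 in hepatocytes and 0.205 to 0.221 in MEF. The list includes Hnf4a, named above as a forced factor, which was above background on every iHep array and on no MEF array. Fibroblast markers summed to 56.4 to 169 in iHep cells, 11.99 in hepatocytes and 892 to 976 in MEF, with all 12 above background on every iHep and MEF array and 10 of 12 in hepatocytes. Markers of bile duct and gut epithelium summed to 309 to 766 in iHep cells, 3.07 in hepatocytes and 4.75 to 5.90 in MEF. In such bulk RNA, fewer cells of a type and less RNA per cell cannot be told apart.

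Clotting runs as a cascade of proteases made mostly by hepatocytes as inactive precursors, in which tissue factor with factor VII starts the reaction, factors IX, X, XI and XII with the cofactor factor V carry it, and thrombin, from prothrombin, turns fibrinogen into fibrin. Serpins and the protein C system hold it back, and plasmin, from plasminogen, dissolves the clot. Complement is a second set of plasma proteases, in which lectins or antibodies act through C4 and C2, an alternative branch acts through factor B, both meet at C3, and the terminal proteins form a pore in a target membrane. The liver supplies most plasma proteins of both systems, while tissue factor and thrombomodulin are cell-surface proteins best known from cells around and lining vessels.

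The first comparison, iHep against MEF, asks how far these genes differ between the induced cells and the cells they came from. In iHep cells 12 of the 42 members (28.6%) were called higher than in MEF, against 10.1% of all genes tested, and 0 were called lower, against 13.2% of all genes. The 12 were F2, F5, Fgb, Fgg and Kng1 of the clotting cascade, Serpind1, Serpinf2 and Proz of the inhibitors, and C3, C9, Cfb and C4bp of complement. At an unadjusted limma p under 0.05, 16 members were higher (38.1%, against 16.9% of all genes tested) and 3 lower (7.14%, against 21.3%), the 3 being Pros1, Serpinc1 and Serping1. Of the 42 members, 15 (35.7%) were above background on no MEF array, where a fall cannot be measured. No support is therefore drawn from the low shares of members lower. The median change over the 42 members was 0.58, against -0.04 over all genes tested. With only the 4 arrays of the shared slide, 6 members were called higher and 0 lower, and without MEF 1, 7 were called higher. With 3 separate MEF samples 16 were called higher and 2 lower, and with normexp background correction, which fits the background in place of the scanner's subtraction, 9 were called higher and 2 lower.

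Hepatocytes against MEF gave 38 members called higher (90.5%), against 28.4% of all genes tested, and 2 called lower (4.76%), against 25.1% of all genes, with a median change of 12.21, against 0.14 over all genes. iHep against hepatocyte gave 35 members called lower (83.3%), against 27.1% of all genes, and 2 called higher, against 22.1%, with a median of -9.38, against -0.17 over all genes. All 42 members were tested, but 13 entered only because the hepatocyte array was above background, which obliges a difference in the comparisons with hepatocytes, so no support is drawn from those counts. The comparisons share arrays and are not independent of each other. On single arrays, 30, 34 and 31 of the 42 members were well above background in iHep types 1, 2 and 3, 42 in hepatocytes and 19, 27 and 25 in MEF 1, 2 and 3.

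Of the 3 fibrinogen genes, which lie side by side on chromosome 3 and whose chains assemble into 1 protein, Fgb and Fgg were called higher in iHep cells than in MEF, and Fga was not. Their promoters, and that of the complement gene C3, are shown because the 3 chains form 1 protein and only 2 of their genes were called, and because C3 was called higher in iHep cells than in MEF. The sequences run 5′ to 3′ on the gene's strand, from 250 bases before to 50 bases after the start, as RefSeq gives them on GRCm38.p6. Capitals mark matches to GTTAAT (a core of the HNF1 site), CAAAGTCCA (HNF4), TGTTTAC (FOXA) or TTGCNNAA (C/EBP), searched on both strands, and no matches overlap in these 4. The Fgb window lies at chr3:83049814-83050113 on the minus strand, Fgg at chr3:83007474-83007773 on the plus strand, Fga at chr3:83025903-83026202 on the plus strand and C3 at chr17:57228087-57228386 on the minus strand.
Fgb: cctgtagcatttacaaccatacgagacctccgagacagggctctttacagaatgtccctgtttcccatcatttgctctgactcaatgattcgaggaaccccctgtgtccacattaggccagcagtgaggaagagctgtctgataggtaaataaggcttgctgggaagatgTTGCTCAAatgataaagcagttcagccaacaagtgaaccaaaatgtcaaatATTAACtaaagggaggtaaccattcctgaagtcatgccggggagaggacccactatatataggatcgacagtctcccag
Fgg: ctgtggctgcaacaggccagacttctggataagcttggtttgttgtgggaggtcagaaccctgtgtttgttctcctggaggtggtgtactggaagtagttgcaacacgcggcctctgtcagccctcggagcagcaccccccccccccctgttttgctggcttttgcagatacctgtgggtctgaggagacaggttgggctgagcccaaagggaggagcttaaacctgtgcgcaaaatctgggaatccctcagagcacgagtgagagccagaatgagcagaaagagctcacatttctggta
Fga: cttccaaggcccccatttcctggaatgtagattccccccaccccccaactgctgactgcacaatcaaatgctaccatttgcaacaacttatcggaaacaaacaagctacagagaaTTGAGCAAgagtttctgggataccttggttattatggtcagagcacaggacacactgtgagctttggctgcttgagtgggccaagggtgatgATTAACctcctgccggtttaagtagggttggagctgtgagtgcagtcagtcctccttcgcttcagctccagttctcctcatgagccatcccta
C3: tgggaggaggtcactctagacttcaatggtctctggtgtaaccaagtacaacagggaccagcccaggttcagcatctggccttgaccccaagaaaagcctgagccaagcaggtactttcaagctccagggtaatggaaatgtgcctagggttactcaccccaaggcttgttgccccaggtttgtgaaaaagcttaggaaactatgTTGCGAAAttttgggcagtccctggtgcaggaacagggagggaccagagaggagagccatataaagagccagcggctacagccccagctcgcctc

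Counted from the first base of a match, Fgb held the HNF1 letters 29 bases and the C/EBP letters 80 bases before the start, Fga held them 43 and 135 bases before it, C3 held the C/EBP letters 45 bases before it, and Fgg held none of the 4 motifs in this window. Of 32 member promoters in the RefSeq table, 9 held the HNF1 letters, 0 the HNF4 letters, 3 the FOXA letters and 10 the C/EBP letters. Over all 27025 promoters of the same length the shares were 7.2%, 0.477%, 3.55% and 10.8%. A match describes the letters and is not a site of binding.

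Fgb, the fibrinogen beta chain, was at 7.38, 8.12 and 7.12 in iHep cells, 9.71 in hepatocytes and -7.93, -7.56 and -6.93 in MEF. Every iHep level was more than 10 log2 units above every MEF level, none of which was well above background, and the groups did not overlap. Its change in iHep against MEF was 15.12 ± 0.39 (at least 13870.3-fold, adjusted p = 0.000325), and in iHep against hepatocyte -2.16 ± 0.50 (4.48-fold lower, adjusted p = 0.0202). The term "at least" is used where no array of the dimmer group was well above background, and it sets the brighter mean against the lowest level still well above background there, or the probe's own level where that was higher. Such a bound rests on the scanner's background subtraction and is not a minimum over other treatments of the data. Each bound given here for a member was missed under some other treatment, with Fgb at a change of 11.11 from MEF. The difference from hepatocytes was -0.88 and not called (adjusted p = 0.267) after quantile normalization, and the call was also lost in the authors' deposited table (adjusted p = 0.280) and without iHep type 1 (adjusted p = 0.0551).

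Fgg, the gamma chain, was at 0.69, 2.90 and -1.77 in iHep cells, 9.42 in hepatocytes and -7.90, -7.09 and -7.23 in MEF. Type 2 was highest and type 3 lowest among iHep cells, and all 3 lay between the MEF and the hepatocyte levels. It rose by 8.13 ± 1.37 in iHep cells (at least 113-fold, adjusted p = 0.0162) and was 452-fold below hepatocytes (-8.82 ± 1.74, adjusted p = 0.0126). Within the shared slide its change from MEF was 8.50 (adjusted p = 0.0874). It was not called without MEF 1 (7.76, adjusted p = 0.105), without iHep type 1 (8.09, adjusted p = 0.0508) or with normexp background correction (4.23, adjusted p = 0.0529). Fga, the alpha chain, was at -7.28, -4.69 and -6.27 in iHep cells, 6.67 in hepatocytes and -6.23, -5.81 and -6.28 in MEF. Only type 2 was well above background among iHep cells, and the iHep and MEF levels overlapped. Its change in iHep cells was 0.06 ± 0.77 (adjusted p = 0.966) and it was called lower than in hepatocytes (-12.75 ± 0.98, adjusted p = 0.000808), with no fold given since 2 of 3 iHep levels were not well above background. The used probes lie at chr3:83128339-83128398, chr3:83100830-83100889 and chr3:83117683-83117742 for Fgb, Fgg and Fga on the array's build mm8, whose exon annotation was not used here.

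**Figure D1:**
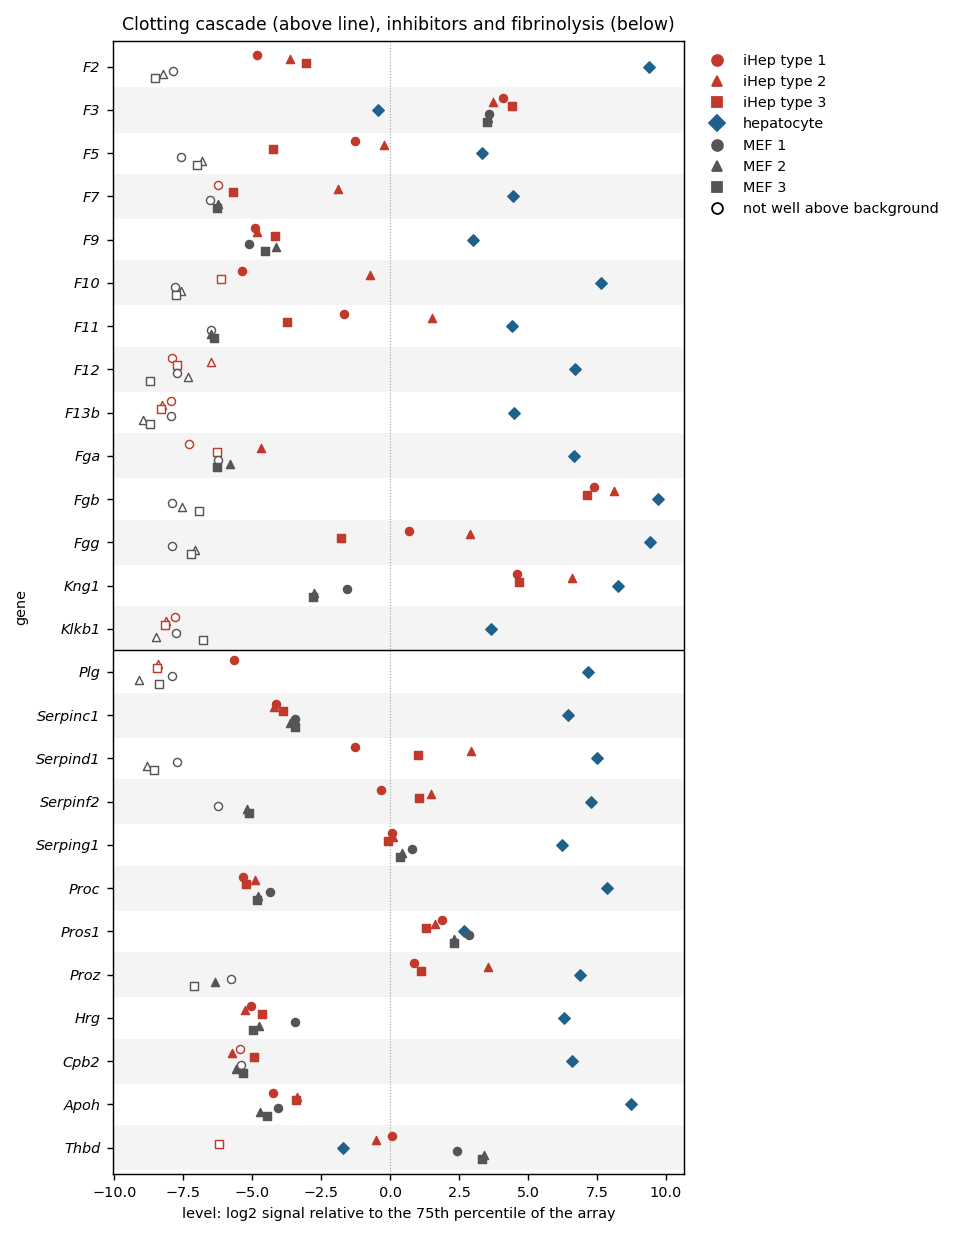
Levels of the 14 clotting cascade genes (above the line) and the 12 inhibitor and fibrinolysis genes (below it) on each of the 7 arrays, as log2 signal minus that of the array's 75th percentile. Red points are iHep types 1 to 3, blue diamonds the hepatocyte array and grey points MEF 1 to 3, with open symbols not well above background; all iHep types lie within 3 log2 units of the hepatocyte array for Fgb and within 4 for Kng1, while F12, F13b and Klkb1 are open in iHep cells and MEF alike.

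F2, prothrombin, was at -4.81, -3.64 and -3.06 in iHep cells, 9.40 in hepatocytes and -7.88, -8.22 and -8.51 in MEF. All iHep levels were above all MEF levels, none of which was well above background, yet far below the hepatocyte level. It rose by 4.28 ± 0.56 log2 units (at least 5.20-fold, adjusted p = 0.00808) and was 9686-fold below hepatocytes (-13.24 ± 0.71, adjusted p = 0.000322). Within the shared slide the change was 4.04 (adjusted p = 0.0642), without MEF 1 it was 4.53 (adjusted p = 0.0530), and with normexp background correction 0.96 (adjusted p = 0.0513). F5, the cofactor of factor X, was at -1.26, -0.23 and -4.25 in iHep cells, 3.33 in hepatocytes and -7.58, -6.84 and -6.997 in MEF. Type 3 was the lowest of the iHep types, and no MEF level was well above background. The change was 5.34 ± 1.23 (at least 19.8-fold, adjusted p = 0.0373), and the call was lost within the shared slide at 5.67 (adjusted p = 0.144), without MEF 1, without iHep type 1 or type 2, and with normexp background correction (adjusted p 0.0641 to 0.178). F5 was 37.8-fold below hepatocytes (-5.24 ± 1.56, adjusted p = 0.0422), a call also lost with no filter (adjusted p = 0.0528), without MEF 1 (adjusted p = 0.0818) and without iHep type 1 (adjusted p = 0.0729).

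Kng1, which encodes kininogen, the cofactor of the contact system and the precursor of bradykinin, was at 4.61, 6.58 and 4.69 in iHep cells, 8.25 in hepatocytes and -1.55, -2.76 and -2.78 in MEF. The iHep levels were all above the MEF levels and below the hepatocyte level, with type 2 nearest to it. Its change in iHep against MEF was 7.45 ± 0.75 (175-fold, adjusted p = 0.00412). The difference from hepatocytes was -2.95 ± 0.95 and not called (adjusted p = 0.0527), but it was called with 3 separate MEF samples (adjusted p = 0.0340), with normexp background correction at -2.89 (adjusted p = 0.0341) and without iHep type 2 at -3.60 (adjusted p = 0.0129). Kng1 and Kng2 are near-identical copies, and their probes may share signal.

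F7, F9, F10 and F11, the proteases that carry the cascade, were not called in iHep against MEF. F7 was at -6.24, -1.89 and -5.69 in iHep cells, 4.47 in hepatocytes and -6.51, -6.24 and -6.26 in MEF, with type 2 alone clearly above the MEF levels. F10 was at -5.38, -0.74 and -6.12 in iHep cells, 7.66 in hepatocytes and -7.81, -7.57 and -7.75 in MEF, where type 2 again stood far above the other types and no MEF level was above background. F11 was at -1.66, 1.52 and -3.72 in iHep cells, 4.41 in hepatocytes and -6.50, -6.51 and -6.37 in MEF; every iHep level exceeded every MEF level, and the spread among types was wide. The change of F11 was 5.18 ± 1.53 (adjusted p = 0.0706), and it was called with 3 separate MEF samples at 5.17 (adjusted p = 0.0236), without type 2 at 3.78 (adjusted p = 0.0417) or without type 3 at 6.40 (adjusted p = 0.0297). The difference of F10 was 3.66 ± 1.69 (adjusted p = 0.183), and it was called only without type 2, at 1.99 (adjusted p = 0.0310), among the 15 alternatives. For F7 it was 1.77 ± 1.38 (adjusted p = 0.401).

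F9, whose loss causes haemophilia B, was at -4.89, -4.81 and -4.17 in iHep cells, 2.999 in hepatocytes and -5.10, -4.13 and -4.52 in MEF. Its iHep and MEF levels overlapped, with a change of 0.09 ± 0.36 (adjusted p = 0.882), and a dimmer F9 probe was below background on all iHep and MEF arrays. F12, the contact factor, was at -7.91, -6.48 and -7.72 in iHep cells, 6.72 in hepatocytes and -7.73, -7.32 and -8.70 in MEF. F13b, the carrier subunit of the fibrin-crosslinking factor XIII, was at -7.94, -8.28 and -8.32 in iHep cells, 4.49 in hepatocytes and -7.94, -8.95 and -8.71 in MEF. Klkb1, plasma prekallikrein, was at -7.81, -8.14 and -8.17 in iHep cells, 3.65 in hepatocytes and -7.76, -8.49 and -6.78 in MEF. For F12, F13b and Klkb1 no iHep or MEF array was well above background, so neither group had a measured level. Against hepatocytes, F12, F13b and Klkb1 in iHep cells were at least 6985-fold, at least 1496-fold and at least 833-fold lower. F9 was 197-fold lower in iHep cells than in hepatocytes on the used probe, and its dimmer probe differed by -9.93 there. F7 and F10, with 2 of 3 iHep arrays well above background, were called lower there at -9.08 ± 1.74 and -11.74 ± 2.14, and F11 was not called in that comparison at -5.70 ± 1.94 (adjusted p = 0.0612) but was with 3 separate MEF samples (adjusted p = 0.0371), with normexp background correction (adjusted p = 0.0353) and without type 2 at -7.11 (adjusted p = 0.00734).

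F3, which encodes tissue factor, the cell-surface starter of clotting, ran the other way. It was at 4.10, 3.74 and 4.42 in iHep cells, -0.44 in hepatocytes and 3.57, 3.54 and 3.52 in MEF, so all iHep levels were a little above the MEF levels and all 6 were far above hepatocytes. Hepatocytes were below MEF, at a difference of -3.99 ± 0.34 (15.9-fold, adjusted p = 0.000923), and iHep cells were higher than hepatocytes by 4.53 ± 0.32 (23.0-fold, adjusted p = 0.000669). In iHep against MEF the change was 0.54 ± 0.25 (adjusted p = 0.192). A second F3 probe moved in the same directions.

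Among the inhibitors and the genes of fibrinolysis, 3 of 12 (25%) were called higher in iHep cells than in MEF, against 10.1% of all genes tested, and 0 lower, against 13.2%. No support is drawn from the 0, since a fall cannot be measured where MEF were not above background. The median change over these 12 genes was -0.25. Serpind1, heparin cofactor II, an inhibitor of thrombin, was at -1.27, 2.94 and 0.99 in iHep cells, 7.50 in hepatocytes and -7.74, -8.82 and -8.56 in MEF. The iHep levels were all above the MEF levels, none of which was well above background. It rose by 9.10 ± 1.25 log2 units (at least 138-fold, adjusted p = 0.00939), with 8.63 (adjusted p = 0.0711) within the shared slide and 9.58 (adjusted p = 0.0605) without MEF 1 and 4.57 with normexp background correction, and was 97.5-fold below hepatocytes (-6.61 ± 1.59, adjusted p = 0.0230; 0.0503 without MEF 1). Proz, protein Z, a cofactor for the inhibition of factor X, was at 0.85, 3.53 and 1.12 in iHep cells, 6.88 in hepatocytes and -5.76, -6.36 and -7.11 in MEF. Again type 2 was highest, no group overlapped another, and 1 of 3 MEF arrays was well above background. The change was 8.08 ± 0.91 (adjusted p = 0.00554) on this probe, 5.54 and 6.02 on the 2 dimmer probes, and 5.23 with normexp background correction, so no fold is given. Proz was 33.0-fold below hepatocytes (-5.05 ± 1.15, adjusted p = 0.0197).

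Serpinf2, alpha-2-antiplasmin, the main inhibitor of plasmin, was at -0.34, 1.49 and 1.04 in iHep cells, 7.28 in hepatocytes and -6.24, -5.19 and -5.10 in MEF. Every iHep level lay several units above every MEF level and several below the hepatocyte level. Serpinf2 rose by 6.42 ± 0.65 log2 units (adjusted p = 0.00424; 4.11 with normexp background correction), with 2 of 3 MEF arrays well above background, and was 94.1-fold below hepatocytes (-6.56 ± 0.83, adjusted p = 0.00327). Plg, plasminogen, was at -5.67, -8.40 and -8.44 in iHep cells, 7.19 in hepatocytes and -7.93, -9.10 and -8.38 in MEF. Type 1 alone was well above background outside hepatocytes, and only on 1 of the gene's 2 probes. Its change in iHep against MEF was 0.83 ± 0.96 (adjusted p = 0.571), and it was called lower than in hepatocytes (-14.69 ± 1.21, adjusted p = 0.000960), with no fold given since 2 of 3 iHep arrays were not well above background.

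The inhibitors antithrombin, C1 inhibitor and protein C had iHep levels below every MEF level, although none was called. In this group 5 of 12 genes had that order, against 31.3% of all genes tested. Serpinc1, antithrombin, was at -4.13, -4.21 and -3.88 in iHep cells, 6.45 in hepatocytes and -3.43, -3.63 and -3.46 in MEF, with a change of -0.58 ± 0.20 (adjusted p = 0.0940). Serping1, the C1 inhibitor, was at 0.07, 0.11 and -0.06 in iHep cells, 6.23 in hepatocytes and 0.79, 0.41 and 0.37 in MEF, with a change of -0.55 ± 0.21 (adjusted p = 0.121). Proc, protein C, was at -5.32, -4.89 and -5.23 in iHep cells, 7.87 in hepatocytes and -4.35, -4.78 and -4.82 in MEF, with a change of -0.57 ± 0.25 (adjusted p = 0.161). Serpinc1, Serping1 and Proc were 1471-fold, 72.8-fold and 8308-fold below hepatocytes in iHep cells, each called. With 3 separate MEF samples Serpinc1 was called lower in iHep cells than in MEF, at -0.56 (adjusted p = 0.0301). A second Serpinc1 probe, dimmer over all arrays, was brighter than the used probe in hepatocytes, at 9.07. It was above background on 2 MEF arrays and on no iHep array. On it the difference in iHep against hepatocyte was -16.48, so the 1471-fold holds for the used probe.

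Pros1 and Thbd, which act with protein C, were called in none of the 3 comparisons. Pros1, the cofactor protein S, was at 1.87, 1.62 and 1.30 in iHep cells, 2.67 in hepatocytes and 2.86, 2.31 and 2.32 in MEF, with iHep levels below all others. Its difference was -0.99 ± 0.28 in iHep against MEF (adjusted p = 0.0648) and -1.08 ± 0.36 against hepatocytes (adjusted p = 0.0574), and the change from MEF was called with 3 separate MEF samples (-0.90, adjusted p = 0.0284), with normexp background correction (-0.96, adjusted p = 0.0481) and with the mean of its probes (-1.28, adjusted p = 0.0351). The difference from hepatocytes was called with 3 separate MEF samples (adjusted p = 0.0342) and with normexp background correction (adjusted p = 0.0434). Thbd, thrombomodulin, was at 0.05, -0.52 and -6.19 in iHep cells, -1.72 in hepatocytes and 2.43, 3.41 and 3.34 in MEF. All iHep and hepatocyte levels lay below the MEF levels, and type 3 was not well above background. The change in iHep against MEF was -5.12 ± 2.01 (adjusted p = 0.133), and it was called without type 3 at -3.14 (adjusted p = 0.0169) and with normexp background correction at -4.08 (adjusted p = 0.0395). In hepatocytes against MEF it was -4.62 ± 2.70 (adjusted p = 0.202), also called without type 3 (adjusted p = 0.00427) and with normexp background correction (adjusted p = 0.0484). Endothelial markers, which mark the cells best known for thrombomodulin, were above background for 3 to 4 of 12 genes in iHep cells, 12 in hepatocytes and 7 to 9 in MEF, and summed to 1.41 to 4.11 in iHep cells, 18.1 in hepatocytes and 4.01 to 5.65 in MEF. Their part in the levels of Thbd and Pros1 was not tested.

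Hrg, Cpb2 and Apoh were called only in the comparisons with hepatocytes. Hrg, histidine-rich glycoprotein, which binds heparin and plasminogen, was at -5.05, -5.28 and -4.66 in iHep cells, 6.29 in hepatocytes and -3.44, -4.75 and -4.99 in MEF. Cpb2, a carboxypeptidase that slows the lysis of fibrin, was at -5.44, -5.74 and -4.94 in iHep cells, 6.58 in hepatocytes and -5.40, -5.60 and -5.34 in MEF. Apoh, beta-2-glycoprotein I, a binder of phospholipid, was at -4.26, -3.39 and -3.40 in iHep cells, 8.72 in hepatocytes and -4.06, -4.72 and -4.46 in MEF. For all 3 genes the iHep and MEF levels overlapped and the hepatocyte level stood far above both. The changes in iHep against MEF were -0.84 ± 0.48 for Hrg (adjusted p = 0.261), 0.06 ± 0.29 for Cpb2 (adjusted p = 0.896) and 0.64 ± 0.37 for Apoh (adjusted p = 0.262), and iHep cells were 2499-fold and 5423-fold below hepatocytes for Hrg and Apoh. Cpb2, with 2 of 3 iHep arrays well above background, was called lower there at -11.95 ± 0.36.

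**Figure D2:**
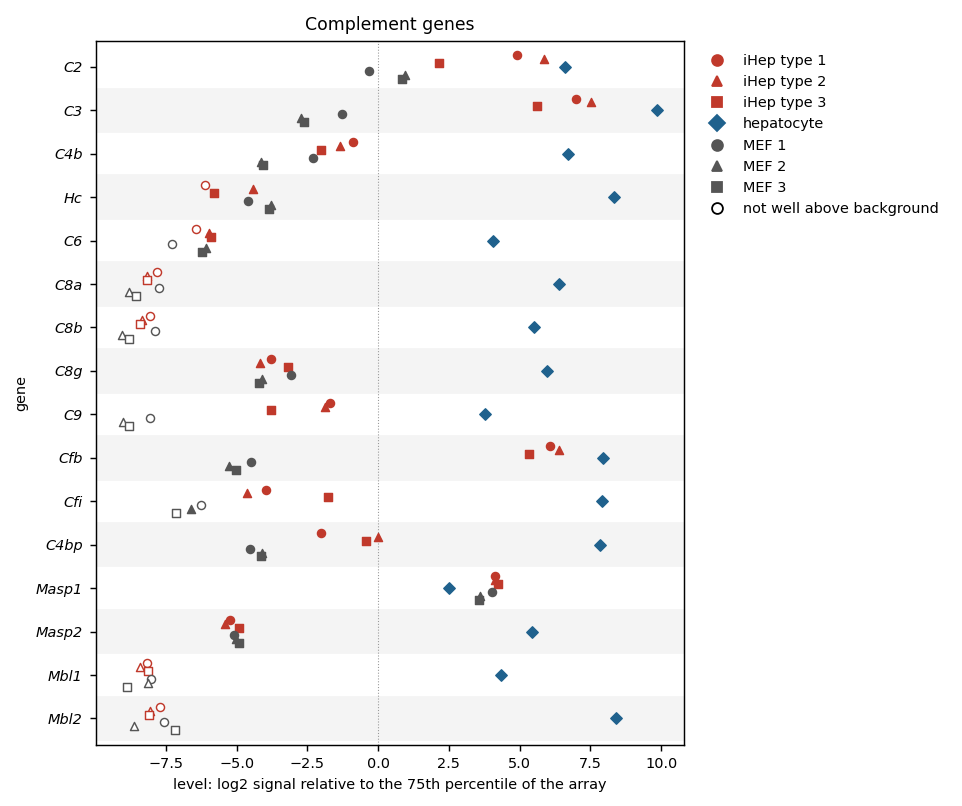
Levels of the 16 complement genes on each of the 7 arrays, as log2 signal minus that of the array's 75th percentile. Red points are iHep types 1 to 3, blue diamonds the hepatocyte array and grey points MEF 1 to 3, with open symbols not well above background; Cfb stands within 3 log2 units of the hepatocyte array in all iHep types, type 3 lies over 4 units below it for C2 and C3, and C8a, C8b, Mbl1 and Mbl2 are open in iHep cells and MEF alike.

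Of the 16 complement genes, 4 (25%) were called higher in iHep cells than in MEF, against 10.1% of all genes tested, and 0 lower, against 13.2%. The limit that MEF levels near background set on falls holds for this 0 too. C3, the protein on which all complement branches converge and whose promoter is shown above, was at 7.01, 7.51 and 5.62 in iHep cells, 9.85 in hepatocytes and -1.27, -2.73 and -2.63 in MEF. The iHep levels were all above the MEF levels and below hepatocytes, with type 3 lowest. C3 rose by 8.69 ± 0.71 log2 units (412-fold, adjusted p = 0.00249) and was 8.82-fold below hepatocytes (-3.14 ± 0.90, adjusted p = 0.0384). That last call was lost after quantile normalization (-1.84, adjusted p = 0.167), in the authors' deposited table (adjusted p = 0.165), without MEF 1 (adjusted p = 0.0508) and without iHep type 1 (adjusted p = 0.0727). The used probe lies at chr17:56889328-56889387 on mm8, and a dimmer C3 probe had the same order of groups. On the dimmer probe the change in iHep against MEF was 5.05, with no MEF array well above background, so the 412-fold holds for the used probe.

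Cfb, factor B, the protease of the alternative branch, was at 6.09, 6.41 and 5.33 in iHep cells, 7.96 in hepatocytes and -4.48, -5.27 and -5.03 in MEF. Its iHep levels lay within about 1 log2 unit of each other, far above MEF. It rose by 10.76 ± 0.41 log2 units (1733-fold, adjusted p = 0.000499) and was 4.05-fold below hepatocytes (-2.02 ± 0.51, adjusted p = 0.0271), a call lost after quantile normalization (-0.98, adjusted p = 0.207), in the authors' deposited table (adjusted p = 0.208) and without iHep type 1 (adjusted p = 0.0589). C2, the matching protease of the classical and lectin branches, was at 4.92, 5.86 and 2.14 in iHep cells, 6.59 in hepatocytes and -0.33, 0.95 and 0.84 in MEF. All iHep levels exceeded all MEF levels, with types 1 and 2 near hepatocytes and type 3 well below them. The change of C2 was 4.03 ± 1.18 and not called (adjusted p = 0.0694), but it was called with 3 separate MEF samples at 3.82 (adjusted p = 0.0282) and without type 3 at 5.11 (adjusted p = 0.0118). C2 in iHep against hepatocyte differed by -2.29 ± 1.49 (adjusted p = 0.255). In hepatocytes against MEF it was called at 6.31 ± 1.58 (79.5-fold), a call lost without MEF 1 (adjusted p = 0.0950).

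C4b, the fourth component, was at -0.90, -1.34 and -2.03 in iHep cells, 6.70 in hepatocytes and -2.31, -4.13 and -4.08 in MEF. The iHep levels were above the MEF levels, with MEF 1 close to type 3, and far below hepatocytes. Its change from MEF was 1.79 ± 0.63 (adjusted p = 0.106), called at 2.09 with 3 separate MEF samples (adjusted p = 0.0342), and it was 278-fold below hepatocytes (-8.12 ± 0.80, adjusted p = 0.00158). C4a is a near-identical copy, so the C4b signal may include it. C4bp, which binds and helps to inactivate C4b, was at -2.03, -0.01 and -0.42 in iHep cells, 7.85 in hepatocytes and -4.52, -4.10 and -4.15 in MEF. All iHep levels were above all MEF levels. The change was 3.50 ± 0.65 (11.3-fold, adjusted p = 0.0208), 3.70 (adjusted p = 0.100) within the shared slide, 3.30 (adjusted p = 0.123) without MEF 1 and 1.65 with the mean of its 2 probes (adjusted p = 0.0660), and C4bp was 408-fold below hepatocytes (-8.67 ± 0.82, adjusted p = 0.00139).

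Cfi, factor I, the protease that cuts C3b and C4b, was at -3.94, -4.63 and -1.78 in iHep cells, 7.90 in hepatocytes and -6.25, -6.59 and -7.13 in MEF. Type 3 was the highest iHep type here, and all iHep levels were above the MEF levels. Its difference was 3.10 ± 0.89 (adjusted p = 0.0653), it was called with 3 separate MEF samples at 3.21 (adjusted p = 0.0201) and without type 3 at 2.27 (adjusted p = 0.0239), and was 2616-fold below hepatocytes (-11.35 ± 1.12, adjusted p = 0.00159).

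Of the 6 terminal genes, whose proteins build the membrane pore, C9 was called in iHep against MEF. C9, the pore-forming subunit, was at -1.70, -1.87 and -3.77 in iHep cells, 3.77 in hepatocytes and -8.05, -9.01 and -8.80 in MEF. All iHep levels were well above background and no MEF level was. It rose by 6.03 ± 0.72 log2 units (at least 13.6-fold, adjusted p = 0.00652), with 5.60 (adjusted p = 0.0547) within the shared slide and 1.83 with normexp background correction, under which that bound is not reached, and was 74.5-fold below hepatocytes (-6.22 ± 0.92, adjusted p = 0.00521). Hc, the gene of complement C5, was at -6.11, -4.42 and -5.81 in iHep cells, 8.32 in hepatocytes and -4.58, -3.79 and -3.84 in MEF. The iHep and MEF levels overlapped, and the change was -1.25 ± 0.59 (adjusted p = 0.190); it was called lower without type 2, at -1.76 (adjusted p = 0.0451). C6, which joins C5 in the pore, was at -6.42, -5.96 and -5.90 in iHep cells, 4.04 in hepatocytes and -7.27, -6.06 and -6.21 in MEF, also with overlapping groups and a change of 0.61 ± 0.40 (adjusted p = 0.322).

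C8 is a complex of 3 chains. C8a, its alpha chain, was at -7.81, -8.15 and -8.18 in iHep cells, 6.38 in hepatocytes and -7.75, -8.82 and -8.57 in MEF. C8b, the beta chain, was at -8.07, -8.35 and -8.40 in iHep cells, 5.49 in hepatocytes and -7.88, -9.04 and -8.80 in MEF. C8g, the gamma chain, was at -3.79, -4.17 and -3.19 in iHep cells, 5.95 in hepatocytes and -3.07, -4.09 and -4.21 in MEF. C8a and C8b exceeded background clearly on no iHep or MEF array, whereas C8g was above it on all, with overlapping iHep and MEF levels and a change of -0.11 ± 0.45 (adjusted p = 0.880). C8g was 816-fold below hepatocytes in iHep cells. Hc and C6, each with 2 of 3 iHep arrays well above background, were called lower there at -13.77 ± 0.74 and -10.13 ± 0.51, and C8a and C8b at least 5509.8-fold and at least 2991-fold below.

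The lectin branch starts with mannose-binding lectins, which recognise sugars on microbes, and their proteases. Mbl1 was at -8.17, -8.41 and -8.13 in iHep cells, 4.35 in hepatocytes and -8.02, -8.13 and -8.87 in MEF. Mbl2 was at -7.71, -8.08 and -8.11 in iHep cells, 8.39 in hepatocytes and -7.56, -8.63 and -7.17 in MEF. No iHep or MEF array was well above background for either lectin, and iHep cells were at least 1355-fold and at least 22279-fold below hepatocytes for Mbl1 and Mbl2. Masp2, a protease of the lectin complex, was at -5.23, -5.40 and -4.91 in iHep cells, 5.45 in hepatocytes and -5.11, -5.03 and -4.93 in MEF, where iHep and MEF levels overlapped (-0.13 ± 0.22, adjusted p = 0.701), and it was 1586-fold below hepatocytes. Its 2 dimmer probes were below background on all iHep and MEF arrays.

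Masp1, the other protease of the lectin complex, gave opposite directions with different probes. The brightest probe, for transcript AK031598, was at 4.13, 4.11 and 4.23 in iHep cells, 2.52 in hepatocytes and 4.03, 3.61 and 3.56 in MEF, so all iHep levels were above MEF and hepatocytes lay below both. On that probe iHep cells were higher than hepatocytes by 1.64 ± 0.27 (3.11-fold, adjusted p = 0.00709) and hepatocytes differed from MEF by -1.28 ± 0.28 (2.43-fold, adjusted p = 0.0161; 0.0535 without MEF 1). The brighter of 2 probes for NM_008555 was at -2.66, -2.13 and -2.97 in iHep cells, 4.49 in hepatocytes and -5.20, -5.13 and -4.79 in MEF. With the mean of all Masp1 probes iHep cells differed from hepatocytes by -3.30 (adjusted p = 0.00276) and hepatocytes from MEF by 4.06 (adjusted p = 0.00152). No direction is therefore given for Masp1 as a gene.

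**Figure D3:**
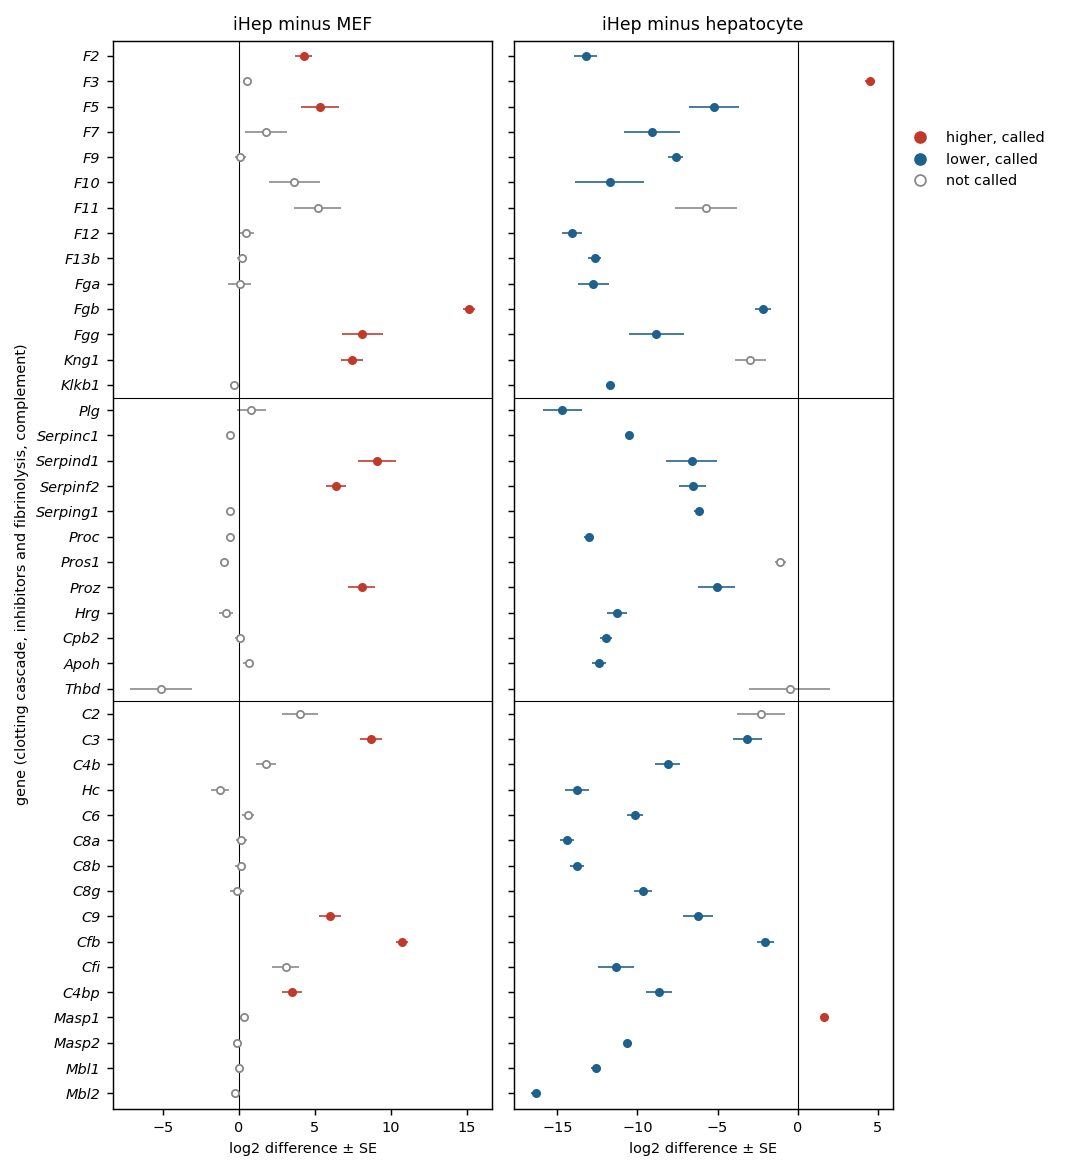
Log2 differences ± SE of the 42 members in iHep minus MEF (left) and iHep minus hepatocyte (right), in the order clotting cascade, inhibitors and fibrinolysis, complement; iHep n = 3, hepatocyte n = 1, MEF n = 2. Red points are called higher, blue points called lower and open points not called; 12 members are called higher on the left and 35 lower on the right, where F3 and Masp1 (on its brightest probe) are the 2 called higher.

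Set side by side over the 3 comparisons, the members fell into 6 patterns of calls. The pattern with the most genes held 24 members, called higher in hepatocytes than in MEF and lower in iHep cells than in hepatocytes but not called in iHep against MEF. Their changes from MEF in iHep cells were -1.25 (Hc) to 3.66 (F10), with a median of 0.07. All 13 members that entered only because the hepatocyte array was above background are in this pattern, so no support is drawn from its size. Another 11, F2, F5, Fgb, Fgg, Serpind1, Serpinf2, Proz, C3, C9, Cfb and C4bp, were called higher in iHep cells than in MEF and lower than in hepatocytes. Their differences from hepatocytes were -13.24 (F2) to -2.02 (Cfb), with a median of -6.22. Kng1 was called against MEF only and not against hepatocytes, F11 and C2 only in hepatocytes against MEF, F3 and, on its brightest probe, Masp1 only in the comparisons with hepatocytes in the opposite direction, and Pros1 and Thbd in none.

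All 3 iHep levels lay above all 3 MEF levels in 19 of 42 members (45.2%), against 24.9% of all genes tested, and below them in 5 (11.9%), against 31.3%. The 5 below were Serpinc1, Serping1, Proc, Pros1 and Thbd, which are 5 of the 12 genes of inhibitors and fibrinolysis. Since 15 of the 42 members were above background on no MEF array, no support is drawn from the low share below. Of the 12 members called higher, Fgb, Kng1, Serpinf2, Proz, C3 and Cfb kept that call under all 15 alternatives, including the 4 arrays of the shared slide. There their changes were 15.47 (adjusted p = 0.00788) for Fgb, 6.84 (adjusted p = 0.0373) for Kng1, 6.97 (adjusted p = 0.0281) for Serpinf2, 7.59 (adjusted p = 0.0489) for Proz, 7.98 (adjusted p = 0.0227) for C3 and 10.43 (adjusted p = 0.00835) for Cfb.

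The 3 iHep types were set side by side without a test, since each has 1 array. Of the 35 members above background on at least 1 iHep array, type 2 was highest in 19 (54.3%), type 3 in 11 and type 1 in 5, and type 2 was highest in 27.9% of the 17287 genes above background on an iHep array. The range between the highest and the lowest type was 0.12 (Masp1) to 6.24 (Thbd) log2 units among these 35 members, with a median of 1.75, against 0.54 over the 17287 genes. Among the 12 members called higher than MEF it was 0.997 (Fgb) to 4.67 (Fgg). Type 2 was highest in 8 of the 11 clotting cascade genes above background. Relative to MEF 1, on the same slide, the median change over the 42 members was 0.24 in type 1, 0.82 in type 2 and 0.56 in type 3. The summed signal of the hepatocyte markers was also highest in type 2, at 406, against 255 in type 1 and 57.0 in type 3, and its part in these orders was not tested.

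The rest of both pathways was read from lists of 64 other genes, of which 63 were on the array and 56 were tested. In iHep against MEF 5 were called higher, against 10.1% of all genes tested, and 11 lower, against 13.2%, with a median change of -0.09. With 3 separate MEF samples 17 were called lower, and within the shared slide 3 were called higher and 4 lower. Among the 11, C3ar1 and Plau were tested only because the MEF arrays were above background. That favours a fall, so no support is drawn from those calls.

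Clu, clusterin, a binder of the terminal complement complex, was at 6.76, 7.52 and 7.32 in iHep cells, 7.75 in hepatocytes and 1.78, 1.23 and 1.17 in MEF. Its iHep levels stood near hepatocytes and far above MEF. It rose by 5.71 ± 0.33 log2 units (52.2-fold, adjusted p = 0.00101) and differed from hepatocytes by -0.55 ± 0.41 (adjusted p = 0.312). Kng2, the second kininogen gene, was at -0.48, 1.58 and -0.41 in iHep cells, 3.53 in hepatocytes and -6.15, -7.58 and -8.52 in MEF, and rose by 7.33 ± 0.88 log2 units (at least 87.4-fold, adjusted p = 0.00659), with the caution given for Kng1. Plaur, the receptor of urokinase, was at 4.33, 4.60 and 5.15 in iHep cells, -4.65 in hepatocytes and 2.19, 2.46 and 2.48 in MEF, so iHep cells were above MEF and both were above hepatocytes. It rose by 2.37 ± 0.30 log2 units (5.16-fold, adjusted p = 0.00749).

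Susd4, a membrane regulator of complement, was at -1.27, -1.37 and -2.01 in iHep cells, 2.80 in hepatocytes and -2.85, -3.35 and -3.32 in MEF. Vwf, the platelet-binding von Willebrand factor of endothelium, was at -2.34, -1.60 and -1.19 in iHep cells, -0.60 in hepatocytes and -3.75, -3.26 and -3.34 in MEF. In both genes all iHep levels exceeded all MEF levels and lay below hepatocytes. Susd4 rose by 1.54 ± 0.31 log2 units (2.91-fold, adjusted p = 0.0270; 1.30 and adjusted p = 0.144 within the shared slide) and Vwf by 1.81 ± 0.40 (3.51-fold, adjusted p = 0.0321; 2.04 and adjusted p = 0.110 within the shared slide). F8, the antihaemophilic cofactor, which in mice is made by endothelium, was at -4.54, -5.19 and -4.97 in iHep cells, -1.45 in hepatocytes and -3.07, -3.53 and -3.54 in MEF. In iHep against MEF it fell by 1.60 ± 0.28 (3.02-fold, adjusted p = 0.0185; -1.83 and adjusted p = 0.0649 within the shared slide). The endothelial marker sums given for Thbd apply to Vwf and F8 too, and their part in these levels was not tested.

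**Figure D4:**
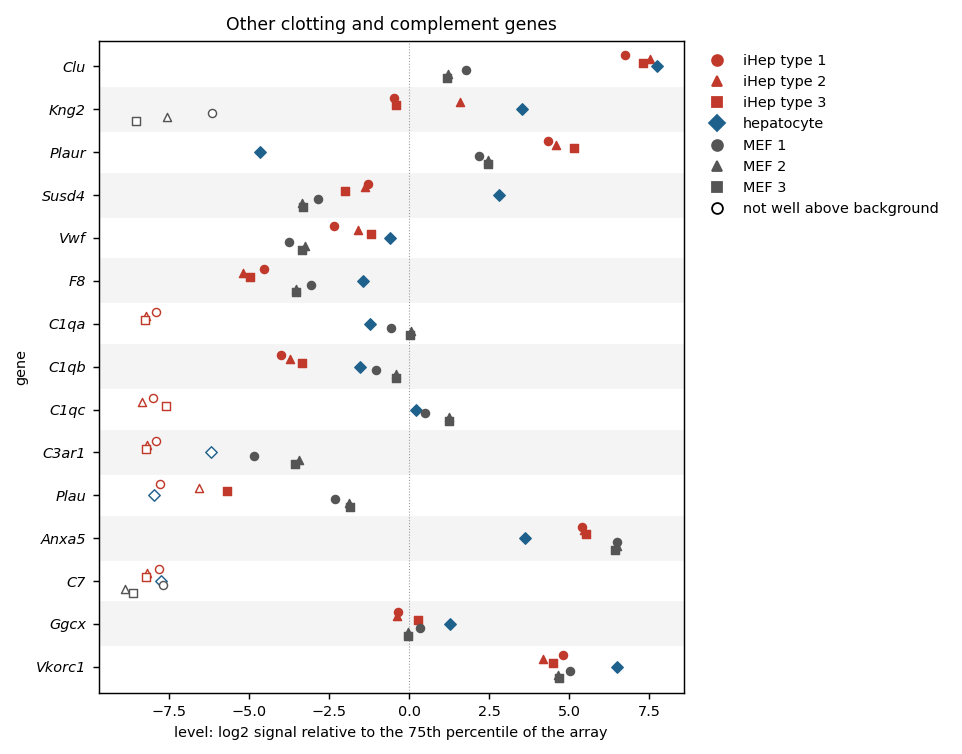
Levels of 15 other clotting and complement genes on each of the 7 arrays, as log2 signal minus that of the array's 75th percentile. Red points are iHep types 1 to 3, blue diamonds the hepatocyte array and grey points MEF 1 to 3, with open symbols not well above background; C1qa and C1qc are open on all 3 iHep arrays and filled in hepatocytes and MEF.

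The genes of C1q, which starts the classical branch and is made chiefly by macrophages, fell in iHep cells. C1qa was at -7.90, -8.21 and -8.25 in iHep cells, -1.21 in hepatocytes and -0.57, 0.06 and 0.03 in MEF, C1qc was at -8.01, -8.35 and -7.59 in iHep cells, 0.20 in hepatocytes and 0.50, 1.26 and 1.25 in MEF, and no iHep array was well above background for either. C1qb was at -3.99, -3.73 and -3.35 in iHep cells, -1.53 in hepatocytes and -1.04, -0.41 and -0.40 in MEF. Every iHep level lay below every MEF level and below hepatocytes. C1qa fell by 7.86 ± 0.27 (at least 55.5-fold, adjusted p = 0.000456), C1qc fell by 8.86 ± 0.35 (at least 122-fold, adjusted p = 0.000546) and C1qb fell by 2.97 ± 0.31 (7.84-fold, adjusted p = 0.00443). C3ar1, the receptor of the C3a fragment, was at -7.89, -8.19 and -8.21 in iHep cells, -6.19 in hepatocytes and -4.83, -3.45 and -3.57 in MEF, and fell by 3.93 ± 0.43 (at least 3.68-fold, adjusted p = 0.00514). C3ar1 was tested through MEF alone, so no support is drawn from its fall. Macrophage markers were called lower in 7 of 12 genes in iHep against MEF, against 13.2% of all genes tested, were above background for 4 to 5 genes in iHep cells, 12 in hepatocytes and 9 in MEF, and summed to 0.490 to 1.90 in iHep cells, 21.1 in hepatocytes and 69.1 to 109 in MEF. Their part in the fall of C1q was not tested.

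Plau, urokinase, an activator of plasminogen, was at -7.77, -6.56 and -5.68 in iHep cells, -7.96 in hepatocytes and -2.30, -1.88 and -1.84 in MEF. Anxa5, the phospholipid binder annexin A5, was at 5.42, 5.45 and 5.52 in iHep cells, 3.63 in hepatocytes and 6.49, 6.48 and 6.44 in MEF. All iHep levels of both genes lay below all MEF levels. Plau was tested through MEF alone, so no support is drawn from its fall. Plau, with 1 of 3 iHep arrays well above background, fell by 4.59 ± 0.64 (adjusted p = 0.00973; -4.37 and adjusted p = 0.0724 within the shared slide), and Anxa5 fell (-1.01 ± 0.17, 2.01-fold, adjusted p = 0.0154; -1.03 and adjusted p = 0.0834 within the shared slide). C7, a terminal component, was well above background on none of the 7 arrays and was not tested.

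Ggcx and Vkorc1 encode the carboxylase and the vitamin K reductase that many clotting factors need for their activation. Ggcx was at -0.34, -0.38 and 0.28 in iHep cells, 1.28 in hepatocytes and 0.35, -0.05 and -0.05 in MEF, and Vkorc1 was at 4.79, 4.18 and 4.50 in iHep cells, 6.50 in hepatocytes and 5.03, 4.65 and 4.68 in MEF. Their iHep and MEF levels overlapped, and neither was called in iHep against MEF (-0.30 ± 0.29 for Ggcx, adjusted p = 0.500; -0.35 ± 0.26 for Vkorc1, adjusted p = 0.379). Both were called lower in iHep cells than in hepatocytes, with differences of -1.42 ± 0.37 for Ggcx (adjusted p = 0.0288) and -2.01 ± 0.33 for Vkorc1 (adjusted p = 0.00739).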

How the data were processed

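Cy3-labelled RNA from 3 iHep types, hepatocytes and 3 MEF preparations was measured on 7 Agilent arrays. Per the file headers, Agilent Feature Extraction 9.5.1.1 read the scans, and the deposited processed signal is a background-subtracted intensity on a linear scale, not scaled between arrays. The mean and background signals, also deposited intensity columns, served for 1 alternative. The authors also deposited a table of intensity values with medians of 66.3 to 66.4 per array, whose making the sources used here do not give; it correlated with each array's own log2 signal at r = 0.9988 to 0.9999 and served as an alternative.

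Control and outlier spots (66 to 104 per array) were left out and spots of a probe averaged. That left 41138 probes. Probe genes came from the RefSeq GRCm38.p6 table by accession (24358) or symbol (8714), from the array file (7805), or were absent (261). The brightest probe over all arrays stood for a gene. A gene was tested where some group had all its arrays well above background (19133 genes), using lmFit and eBayes of limma 3.58.1 under R 4.3.3 (3 groups in 1 fit, Benjamini-Hochberg adjustment), which was also tested on simulated data. The MEF 2 to MEF 3 spread was 0.59 to 0.98 times that of repeated spots, against 4.15 to 4.56 for MEF 1 to MEF 2, so their mean was used; this departs from the planned fit with 3 MEF samples. The small number of arrays limits the precision. Pairing of iHep and MEF by number was checked and not found (correlations of deviations from -0.04 to 0.03).

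The members and gene lists were chosen with earlier results of these data known. Every member is accounted for, and of the other pathway genes the 6 called higher and the 6 called lower with the smallest adjusted p in iHep against MEF were to be named, along with F8, Vwf, C1qa, C1qb, C1qc, C7, Ggcx and Vkorc1. Only 5 were called higher, and 1 listed gene is not reported here. The alternatives were 3 separate MEF samples, normexp background correction with an offset of 50, quantile normalization, median scaling, the authors' table, no filter, the mean of all probes, the shared slide alone, a replicate block, and leaving out each MEF or iHep array.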

Additional observations from a re-analysis of the deposited data

How the results depend on the processing

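Over 15 alternatives, the 42 members gave 1616 values with the same direction and call, 32 with a call gained, 34 with a call lost and 40 with the sign turned; the causes were not tested. Members called higher in iHep against MEF (12) numbered 16 with 3 separate MEF samples, 9 with normexp background correction, 6 within the shared slide and 7 to 15 with 1 array left out. Members called lower there (0) numbered 2 with 3 separate MEF samples, 2 with normexp background correction, 1 with the mean of all probes and 0 to 1 with 1 array left out. With the replicate block, 16 members were called higher and 2 lower, and since the numbers were not found to pair the samples, no weight is given to the block. Other pathway genes called higher (5) numbered 8 with the mean of all probes, 3 within the shared slide and 2 to 8 with 1 array left out, and those called lower (11) numbered 17 with 3 separate MEF samples, 4 within the shared slide and 4 to 11 with 1 array left out.

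The median member change in iHep against MEF (0.58) was 0.17 with normexp background correction. In hepatocytes against MEF the median (12.21) was 9.39 with normexp, 11.42 with quantile normalization, 11.39 in the authors' table and 11.88 with the mean of all probes, and 1 member was lower with that mean and 1 to 3 with 1 array left out. In iHep against hepatocyte the median (-9.38) was -7.93 with normexp, -8.70 with quantile normalization, -8.68 in the authors' table, -8.95 with the mean of all probes and -10.08 to -9.25 with 1 array left out, and 1 member was higher with the mean of all probes.

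Most turned signs belonged to members not called in iHep against MEF. With normexp, F9 was at -0.0395, F13b at -0.0516, Cpb2 at -0.0287, C8a at -0.0154 and C8b at -0.0295. Within the shared slide, F13b was at -0.24, C8a -0.30, C8b -0.40 and Mbl1 -0.21. With 3 separate MEF samples and with the replicate block, F9 was at -0.0428 and C8g at 0.0702. C8b was at -0.0368 with quantile normalization and in the authors' table. With the mean of all probes, Cpb2 was at -0.25 and Masp2 at 0.13. With 1 array left out the changes ran over -0.30 to 0.22 for F9, -0.64 to 0.65 for Fga, -0.77 to 0.0838 for Klkb1, -0.0853 to 1.30 for Plg, -0.16 to 0.25 for Cpb2, -0.37 to 0.43 for C8g, -0.16 to 0.27 for Mbl1 and -0.60 to 0.13 for Mbl2. In the other comparisons, Pros1 in hepatocytes against MEF was at -0.13 with quantile normalization, -0.13 in the authors' table and -0.30 with the mean of all probes. Thbd in iHep against hepatocyte was at 0.12 with normexp and -1.64 to 1.48 with 1 array left out. With the mean of all probes, Masp1 was at 4.06 in hepatocytes against MEF and -3.30 in iHep against hepatocyte. Levels near background limit the depth at which iHep cells and MEF can be compared, since 7 members were above background in no iHep array and 15 in no MEF array.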
